A study of Mus musculus with 2 samples.

Results

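A set of 35 genes of the neuronal synapse was examined in open chromatin of newborn mouse heart. They were chosen by name, from proteins of the synaptic vesicle, transmitter receptors, transmitter synthesis, synaptic adhesion and neuronal RNA binding, and make up 35 of the 21938 protein-coding genes of GENCODE vM21 on chromosomes 1 to 19, X and Y of mm10. The data are DNase-seq, which maps DNA that a nuclease can cut because no nucleosome covers it, from 2 libraries of heart tissue of B6NCrl mice at postnatal day 0. The libraries form 1 group with no treatment or genetic change named, their sex was not recorded, and both name the same donor, so the spread between them may be technical. The submitters deposited 164847 and 144867 peaks for libraries 1 and 2, all 150 bp long, each with a signal value of at most 145 and 148, whose median over all peaks was 36 and 35. The depth behind each value is unknown, since no read totals came with the lists. With 1 group there is no contrast and no test. Where the same count was made over all protein-coding genes, it stands beside that of the members. A count given without it only describes the members.

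Neurons release transmitter from vesicles that the SNARE proteins fuse with the membrane, and receptors held by scaffold proteins on the receiving cell detect it. Outside neurons many of these genes are kept silent by REST, a zinc finger repressor that binds a long element called RE1 and brings in the co-repressors RCOR1 and SIN3A. A heart holds few neurons, chiefly those of its own autonomic ganglia, and its bulk is muscle, fibroblasts, endothelium and blood. In bulk tissue, a site weakly open in many cells and a site strongly open in few cells cannot be told apart.

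RE1 was searched in every peak. The 13 exact matches that lay in a peak of both libraries at the members, apart from those of Syt4 and Celf4, are printed here. Each line gives the 17 bases of the match in capitals with 6 bases to either side, from the GRCm38.p6 reference, read on the strand of the match.
Snap25 chr2:136714282-136714310 (+ strand): cgggagCTCAGCACCCTGGACAGgagtgc
Snap25 chr2:136714332-136714360 (+ strand): tgacctTTCAGCACCGCGGACAGcgatcc
Stmn2 chr3:8508224-8508252 (+ strand): agccatTTCAGCACCACGGACAGcgcttc
Gria2 chr3:80802983-80803011 (+ strand): ttcgatTTTAGCACCGCGGACAGcgcttt
Grin1 chr2:25319012-25319040 (- strand): atacgcTTCAGCACCTCGGACAGcacccg
Slc32a1 chr2:158570537-158570565 (- strand): tatggaATCAGAACCATGGACAGctcaca
Slc32a1 chr2:158584785-158584813 (- strand): acatagGTCAGAACCAAGGACAGcgctct
Gad1 chr2:70559696-70559724 (- strand): gaagacTTCAGCACCGAGGACAGcgcctg
Nrxn3 chr12:88863260-88863288 (+ strand): tcagggTTCAGAACCATGGAGAGtgccca
Shank2 chr7:144294453-144294481 (- strand): gcccgtTTCAGCACCATGGACAGaggaaa
Rbfox3 chr11:118584950-118584978 (- strand): tgcgggTTCAGCACCAGGGACAGtaacaa
Rbfox3 chr11:118603299-118603327 (+ strand): gatgacATCAGCACCATGGAGAGcgcaaa
Rbfox3 chr11:118927247-118927275 (- strand): cacaggTTCAGAACCATGGACAGaagcgg

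The Snap25 intron held a pair of these matches in 1 peak, and the Gria2 promoter peak held 1 just upstream of the gene's start. Both peaks are printed whole, on the strand of the gene, with the RE1 matches in capitals (on Gria2 the match reads on the opposite strand).
Snap25 chr2:136714276-136714425 (+ strand): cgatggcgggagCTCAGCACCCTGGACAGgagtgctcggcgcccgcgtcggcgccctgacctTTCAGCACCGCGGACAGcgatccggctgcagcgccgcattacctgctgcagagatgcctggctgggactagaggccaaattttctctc
Gria2 chr3:80802916-80803065 (- strand): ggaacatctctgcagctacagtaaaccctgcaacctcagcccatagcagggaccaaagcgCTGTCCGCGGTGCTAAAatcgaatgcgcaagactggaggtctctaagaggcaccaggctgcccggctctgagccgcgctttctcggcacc

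A different pair of sequences shows promoter peaks of Camk2b and Syn3, which with Camk2a had the highest promoter values of the members. The Camk2b peak lies at a start inside the gene and holds a match to the MEF2 element, which is bound by a family of factors of muscle and neurons. The Syn3 sequence is the part of the library 1 promoter peak upstream of the gene's exons, with a GC box (GGGCGG) in capitals. That GC box was not in the overlapping peak of library 2.
Camk2b chr11:6000556-6000705 (- strand): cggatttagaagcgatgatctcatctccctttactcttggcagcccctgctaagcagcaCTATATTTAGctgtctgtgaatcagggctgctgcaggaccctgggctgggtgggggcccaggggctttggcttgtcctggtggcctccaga
Syn3 chr10:86498897-86498985 (- strand): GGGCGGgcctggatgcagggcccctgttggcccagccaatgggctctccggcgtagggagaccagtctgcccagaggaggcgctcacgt

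A promoter peak is a peak whose centre lay within 500 bp of any annotated transcription start site (TSS) of the gene. By that measure 26 of the 35 members (74.3%) were open at the promoter in both libraries, beside 63.7% of all protein-coding genes. The members have more annotated starts, with a median of 6 beside 3. At the 5′-most protein-coding start alone, 20 members (57.1%) had a peak in both libraries, beside 58.1% of all genes. Promoters rich in CpG are usually open in every tissue, and among members in the upper 5 of 10 classes of promoter CpG ratio the count was 12 of 16 (75%), beside 93.6% of all genes of those classes. Averaged over the members, the share of all genes of a member's CpG class with such a peak was 79.5%. A hotspot, which is a broader region of raised cutting called by the submitters, overlapped a promoter in both libraries for 26 members (74.3%), beside 64.5% of all genes.

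The members' promoter peaks were low in value. Where a gene has several promoter peaks, its highest value in each library was taken. The median of the highest promoter value was 43.5 and 41.5 in libraries 1 and 2 over the 26 members, and 89 and 85 over the 13981 genes with a peak in both. In 23 of the 26 the value was below the all-gene median in both libraries. The 3 exceptions were Syn3, Camk2a and Camk2b. The all-gene median rises with CpG class, from 58 and 54 in class 4 to 97 and 94 in class 10, the richest. Of members with a peak in both libraries, 0 of 1 in class 3, 3 of 5 in class 4 and 6 of 8 in class 5 lay below both medians of their own class. In classes 6, 8, 9 and 10 the counts were 3 of 3, 4 of 4, 2 of 2 and 2 of 3. Hotspots at the members' promoters were also narrow, with a median width of 357 and 366 bp beside 669 and 693 bp for all genes. They carried the top −log10 q of 100 in 60% and 61.5% of the members with a hotspot, beside 84.5% and 82.2% of genes.

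**Figure D1:**
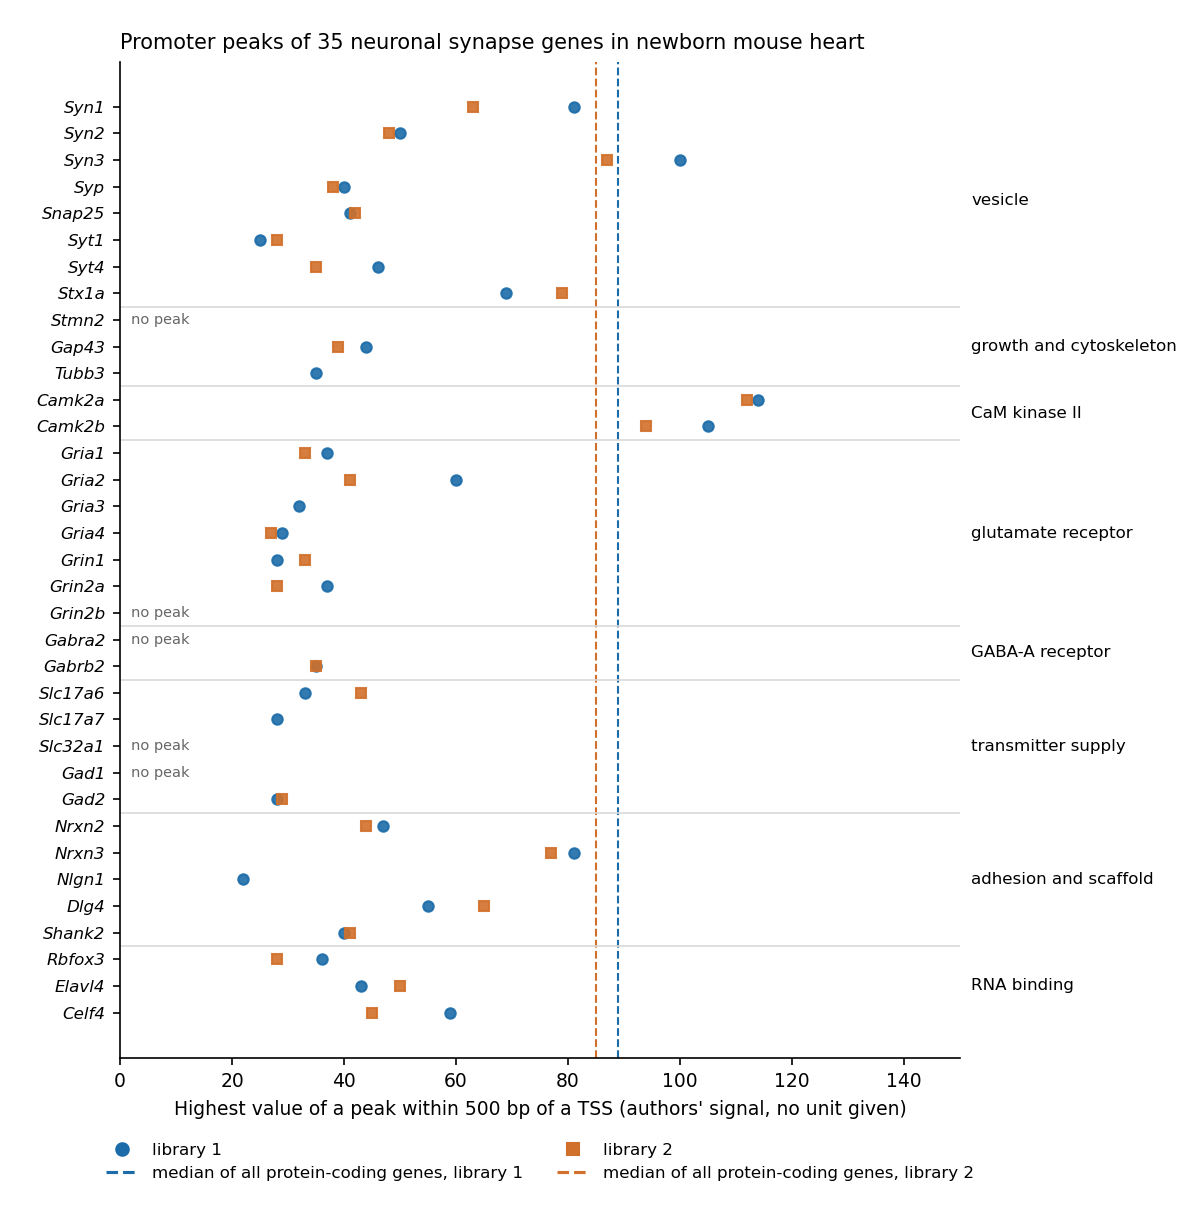
Highest signal value of a promoter peak (x axis, the authors' signal with no unit given) for each of the 35 members (y axis, grouped by role), with 1 point per library and dashed lines at the median of all protein-coding genes with a peak in both libraries. Syn3, Camk2a and Camk2b lie above the lines, and 5 members have no promoter peak.

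All 8 members of the vesicle group had a promoter peak in both libraries. Syn1, which encodes synapsin I, a protein that tethers vesicles in reserve, had 81 and 63 in libraries 1 and 2 (72 ± 12.7, SD, n = 2). Its paralogue Syn2 had 38 and 48 at its 5′ end, and 50 and 29 at an internal start 103868 bp from it. Syn3 reached 100 and 87 (93.5 ± 9.19) at its 5′ end, the highest value of any member at the 5′-most start. Stx1a, the syntaxin of the presynaptic membrane, had 69 and 79 (74 ± 7.07). Its SNARE partner Snap25 had 41 and 42, and the vesicle protein synaptophysin, Syp, had 40 and 38. The calcium sensor Syt1 had 25 and 28, the lowest value of the 26 in library 1. Syt4, a synaptotagmin that responds little to calcium, had 46 and 35. The vesicle genes thus ran from 25 to 100, with Syn1, Syn3 and Stx1a apart from the other 5, which lay at or below 50.

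Of the 3 genes of neurite growth and the cytoskeleton, 1 had a promoter peak in both libraries. That was Gap43, a protein of growth cones, with 44 and 39. Stmn2, a microtubule regulator of growing axons, had no promoter peak in either library. Tubb3, the neuronal beta tubulin used as a marker of neurons, had 35 in library 1 and none in library 2.

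The highest promoter values of the 35 were those of the 2 subunit genes of calcium/calmodulin-dependent kinase II, and in both the peak lay inside the gene. Camk2a had 114 and 112 (113 ± 1.41) at a start 37832 bp from its 5′ end, chr18:60963376-60963525, in an intron. That start belongs to transcript Camk2a-204, whose coding sequence has 200 codons where Camk2a-201 has 489. A short product of an internal Camk2a promoter is known from muscle, where it anchors the kinase and lacks the catalytic domain. No peak was called within 500 bp of the 5′-most start of Camk2a in either library. Camk2b had 105 and 94 (99.5 ± 7.78) at the start of transcript Camk2b-213, 65118 bp inside the gene, and 45 and 27 at its 5′ end. Both internal peaks held an exact MEF2 match in both libraries, an element found in 1.44% and 1.49% of all peaks within 500 bp of a TSS and in 4.05% and 4.15% of all peaks. Among the members' promoter peaks 3 of 64 and 3 of 48 held it, the third being at the 5′ end of Celf4 (59 and 45). The related kinase genes Camk2d and Camk2g, which are no members, had 119 and 109, and 103 and 96.

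Receptor genes had low promoter values or none. Of the AMPA receptor subunits, which carry fast excitation, Gria2 was highest with 60 and 41 (50.5 ± 13.4). Gria1 had 37 and 33, and Gria4 had 29 and 27. Gria3 had 4 promoter peaks of 22 to 32 in library 1 and none in library 2. Of the NMDA receptor subunits, the obligatory Grin1 had 28 and 33. Grin2a had 37 and 28 at an internal start 1033 bp from its 5′ end. Grin2b had no promoter peak, although it is 460279 bp long and held 17 and 14 gene body peaks. Of the GABA-A receptor subunits, Gabrb2 had 35 and 35 at an internal start and Gabra2 had none. Of the receptor genes, Gria2 alone passed 43.5, the median of the 26 members in library 1, and none passed 41.5, their median in library 2.

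Of the 5 genes that make or load transmitter, 2 had a promoter peak in both libraries. Slc17a6, the vesicular glutamate transporter VGLUT2, had 33 and 43, and its paralogue Slc17a7 had 28 in library 1 only. Gad2, which makes GABA from glutamate, had 28 and 29. Gad1, the other enzyme of that step, and Slc32a1, which loads GABA into vesicles, had no promoter peak in either library.

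Of the adhesion and scaffold genes, Nrxn3, Dlg4 and Shank2 had their highest promoter values at internal starts. Nrxn3, a neurexin of the presynaptic membrane, had 81 and 77 (79 ± 2.83) 1017846 bp from the 5′-most protein-coding start, at a start shared by Nrxn3-202 and Nrxn3-203. Those transcripts have 567 and 430 codons where Nrxn3-205 has 1571. Dlg4, which encodes the scaffold PSD-95, had 5 promoter peaks in library 1 that all lay at internal starts, the highest of them with 55 and 58 and another with 46 and 65. Shank2, a scaffold beneath the receptors, had 40 and 41 at an internal start. Nrxn2 differed in having its highest values, 47 and 44, at the 5′ end. Nlgn1, the postsynaptic partner of neurexins, had 22 in library 1 only. Of the RNA-binding genes, Celf4 had 59 and 45, Elavl4 had 43 and 50, and Rbfox3, whose product is the neuronal marker NeuN, had 36 and 28. The 6 members open in both libraries at some start, but not at the 5′-most protein-coding start, were Camk2a, Grin2a, Gabrb2, Nrxn3, Dlg4 and Shank2. At some start and at that start, 26 and 20 of the 35 members were open, beside 13981 and 12752 of all 21938 protein-coding genes. The members also have more annotated starts, with a median of 6 beside 3. The annotated Nrxn3 gene begins upstream of its 5′-most protein-coding start, at chr12:88722876. A hotspot with the top −log10 q of 100 overlapped this position in both libraries.

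The wider synapse list of 74 genes, chosen by function, gave a like share at a higher level. A promoter peak was found in both libraries for 56 of them (75.7%), with a median highest value of 62.5 and 54.5. Rab3a, a vesicle GTPase, had 125 and 119, and Grin2c, an NMDA receptor subunit, had 20 and 18. Marker genes gave a check on the tissue. All 8 cardiomyocyte genes were open at the promoter in both libraries, with a median of 110 and 98.5. Of 12 autonomic neuron genes, 3 had one, Isl1 (59 and 42), Ddc (63 and 57) and Chrna3 (29 and 16), while Th, Dbh, Chat, Slc18a3, Phox2a and Prph had none in either library. Isl1 and Ddc are also used outside neurons. Of 8 Schwann cell and neural crest genes 3 had one, and Sox10 had none. None of 6 transcription factors of brain neurons had one in both libraries. The part that heart neurons have in the members' peaks was not tested.

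The RE1 consensus was searched on both strands of every peak. An exact match was present in 3 of 64 and 3 of 48 promoter peaks of the members (4.69% and 6.25%), beside 0.192% and 0.190% of all peaks of that length within 500 bp of a TSS. In gene bodies it was present in 7 of 396 and 8 of 346 peaks (1.77% and 2.31%), beside 0.248% and 0.305% of all other peaks. In the flanks of 50 kb it was present in 1.97% and 1.69% of the members' peaks, which number 254 and 236. The share of members' peaks with RE1 was above that of all peaks in each library and in each of the 3 places. A match is a description of the sequence, and the binding of REST was not measured.

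**Figure D2:**
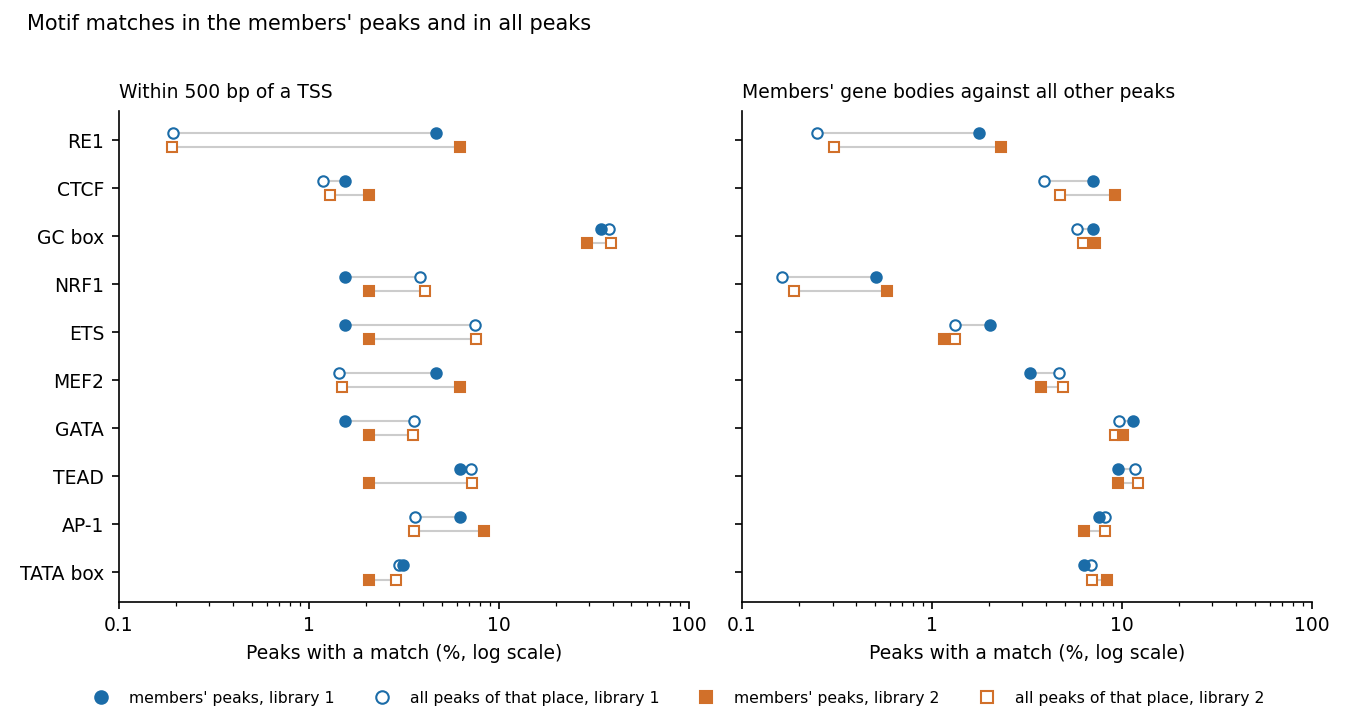
Share of peaks with an exact match to each of 10 elements (x axis, percent, log scale), circles for library 1 and squares for library 2. Filled points are the members' promoter peaks (left) and gene body peaks (right). Open points are all peaks within 500 bp of a TSS (left) and all other peaks, inside genes or not (right). RE1 shows the widest gap in both panels, 4.69% and 6.25% beside 0.192% and 0.190% at TSSs.

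Counted by gene, 11 of the 35 members (31.4%) had an exact RE1 match inside a peak of both libraries within the gene or 50 kb of it, beside 2.75% of all protein-coding genes. The members are long genes, and among the 24 in the upper 2 of 10 classes of gene length the count was 6 (25%), beside 4.56% of all genes of those classes. The genome held 2163 exact matches on the chromosomes used, and 350 of them (16.2%) lay in a peak of both libraries. Around the members there were 32 matches, of which 15 (46.9%) lay in a peak of both libraries, 2 in a peak of 1 library and 15 in none. Around all protein-coding genes the share was 17.4%. Of the 74 genes of the wider synapse list 12 had such a match (16.2%), as had 1 of the 6 brain neuron factors (Neurod2) and none of the 8 cardiomyocyte, 12 autonomic neuron, 8 Schwann cell and 9 REST complex genes. Rest itself had a promoter peak of 61 and 64, Rcor1 had 126 and 122, and Sin3a had 129 and 119.

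Each counted match lies whole within a 150 bp peak of both libraries, which by itself limits its distance from the centre. The largest distance was 67 bp, and the distance for randomly placed matches was not computed. Over the 350 matches the median distance from the peak's centre in library 1 was 18 bp, and over the members' 15 it was 15 bp. Peaks with a match were of middling height, with a median of 39 and 35.5 over all sites and 46 and 39 over the members'.

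**Figure D3:**
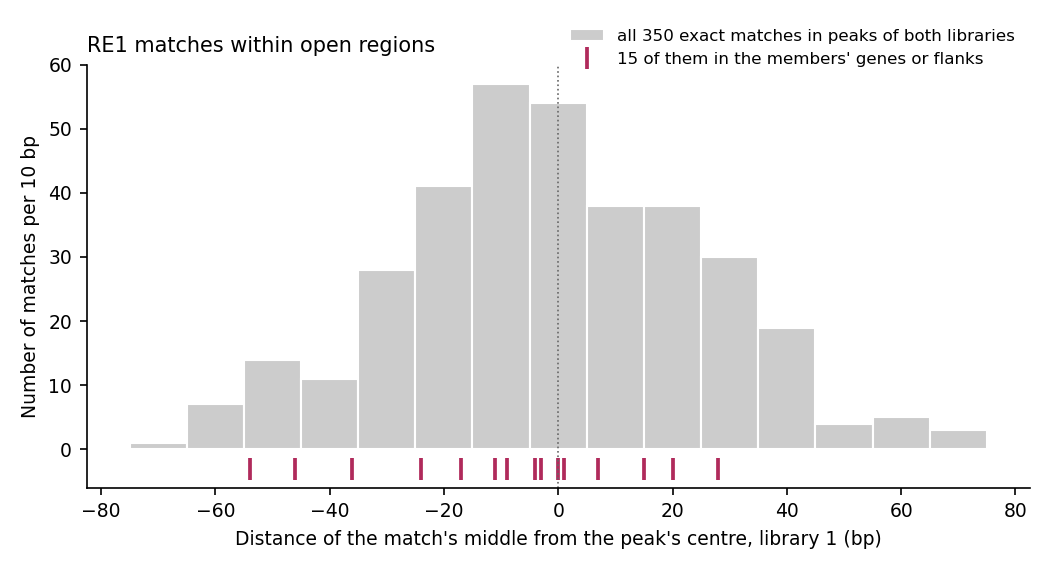
Distance of the middle of each exact RE1 match from the centre of its peak in library 1 (x axis, bp), as a histogram of all 350 matches in peaks of both libraries (y axis, matches per 10 bp), with the members' 15 as ticks below. Most matches lie within 40 bp of the centre, and the members' ticks run from -54 to 28 bp.

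At Snap25, Syt4 and Stmn2, RE1 lay close to the start of the gene. The 2 Snap25 matches were in an intron 843 and 893 bp from the 5′-most start, chr2:136714288-136714304 and chr2:136714338-136714354, in a peak of 57 and 60 that was higher than the gene's promoter peak of 41 and 42. The Syt4 match was 216 bp inside the gene in its promoter peak, in an annotated exon. At Stmn2, which had no promoter peak, the match at chr3:8508230-8508246 lay 1122 bp upstream of the gene in a peak of 36 and 26.

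Among receptors, enzymes and transporters, 4 members had a match. The Gria2 match, chr3:80802989-80803005, was 162 bp upstream of the gene, in its promoter peak of 60 and 41. The Grin1 match, chr2:25319018-25319034, was in an exon 161 bp from the 5′-most start, in the promoter peak of 28 and 33. Gad1 had no promoter peak, and its match, chr2:70559702-70559718, lay in an intron 6638 bp from the 5′-most start in a peak of 50 and 37. Slc32a1 had no promoter peak and no gene body peak, and its 2 matches lay 40216 and 25968 bp upstream, chr2:158570543-158570559 and chr2:158584791-158584807. Those Slc32a1 peaks had 48 and 53, and 42 and 45. The protein-coding start nearest to the farther of them is that of Arhgap40, so its assignment to Slc32a1 is by distance only. Stmn2, Gad1 and Slc32a1, 3 of the 5 members with no promoter peak, had an open exact RE1 match in the gene or within 50 kb. Grin2b and Gabra2 had no such match, nor had Gria3, Slc17a7, Nlgn1 and Tubb3, with a promoter peak in a single library. The other members with such a match had a promoter peak in both libraries. The share among all protein-coding genes without a promoter peak was not counted, so no link between a missing promoter peak and an open RE1 match is drawn.

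In Shank2, Nrxn3, Rbfox3 and Celf4 the matches lay in introns far from the 5′-most start, apart from 1 Rbfox3 match in the flank. Shank2 had 1 at chr7:144294459-144294475, 292539 bp from its 5′-most start, in a peak of 40 and 39. Nrxn3 had 1 at chr12:88863266-88863282 in a peak of 30 and 25, which also held an exact MEF2 match. Rbfox3 had 3, of which 2 were in introns 326633 and 308284 bp from the 5′-most start, with 47 and 45, and 45 and 29. The third Rbfox3 match lay 15664 bp upstream of the gene in a peak of 35 and 35. Celf4 had 1 in an intron, 85912 bp from its 5′-most start, in a peak of 74 and 76, the highest of the peaks with a match. With 1 mismatch allowed in the fixed positions, matches in peaks of both libraries were added at Syn2 (42 and 34), Slc17a6 (33 and 43, in its promoter peak, 134 bp upstream), Gad2 (28 and 29, in its promoter peak, 36 bp upstream), Slc17a7 (78 and 51, in the flank, nearest to the start of Ccdc155) and Nrxn2 (32 and 36, and 43 and 58). That brought the members with a match to 16. The same relaxation raised the share of all peaks with a match from 0.237% to 0.955% in library 1 and from 0.280% to 0.999% in library 2. The share of all protein-coding genes with 1 mismatch allowed was not counted, so the rise to 16 is not a result about the members.

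At promoters and in gene bodies, other elements were closer, as a ratio, to the level of all peaks. That did not hold in the flanks, where 96 and 91 peaks lay at a TSS of another gene. There NRF1 was in 1.97% and 2.54%, beside 0.162% and 0.187% of all peaks away from TSSs. The flank shares of the GC box were 23.6% and 26.7%, beside 5.84% and 6.28%. Those of RE1 were 1.97% and 1.69%, beside 0.248% and 0.305%. The CTCF element, bound by the factor that anchors chromatin loops, was in 7.07% and 9.25% of the members' gene body peaks, beside 3.91% and 4.73% of all peaks away from TSSs. The NRF1 element, common in promoters of housekeeping genes, was in 1.56% and 2.08% of the members' promoter peaks, beside 3.87% and 4.07% of all peaks near a TSS. The ETS element (CCGGAAG) was in 1.56% and 2.08%, beside 7.48% and 7.62%. Each of those 1.56% and 2.08% figures is 1 peak of 64 and 1 peak of 48. The GC box was in 34.4% and 29.2%, beside 37.9% and 38.8%. Of the elements of heart muscle and stroma, the GATA element (AGATAA) was in 11.4% and 10.1% of gene body peaks beside 9.65% and 9.20%, the TEAD element (GGAATG) in 9.60% and 9.54% beside 11.8% and 12.1%, and the AP-1 element (TGANTCA) in 7.58% and 6.36% beside 8.12% and 8.14%. The MEF2 element was in 3.28% and 3.76% of gene body peaks beside 4.68% and 4.88%. The TATA box (TATAAA) was in 3.12% and 2.08% of promoter peaks beside 2.99% and 2.87%. All were searched on both strands, and the GC box, NRF1 and ETS elements can overlap in CpG-rich sequence.

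Inside the genes, more than 500 bp from any of their starts, the members held 396 peaks in library 1 and 346 in library 2, of which 283 were shared (an overlap of at least 1 bp). At least 1 shared gene body peak was found in 31 members (88.6%), beside 52.4% of all protein-coding genes. The 4 without were Slc17a6, Slc17a7, Slc32a1 and Tubb3. The members are longer than most genes, with a median length of 121386 bp beside 17425 bp. Per 100 kb the members' median was 5.07 beside 4.08. Within the longest class, 110158 bp and up, the median of the 18 members was 3.53 per 100 kb beside 6.12 for all genes of the class, and 12 of the 18 lay below it. The lowest were Gabra2 with 0.723, Nlgn1 with 0.938, Gria2 with 1.24 and Gria4 with 1.45 per 100 kb.

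**Figure D4:**
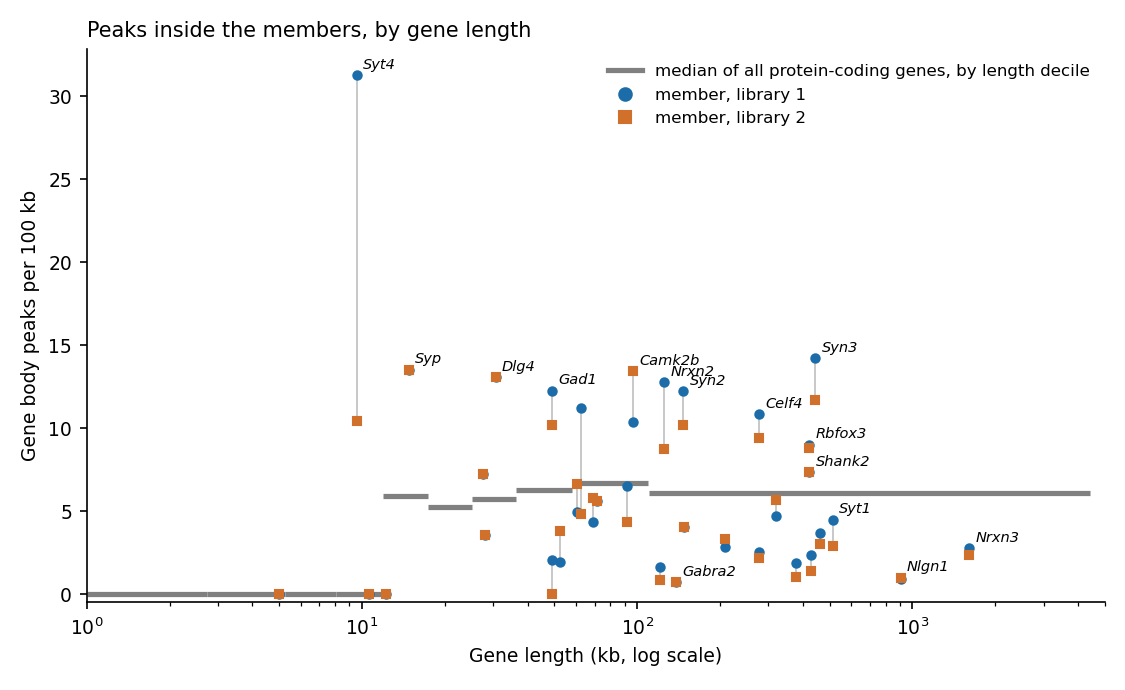
Gene body peaks per 100 kb (y axis) against gene length (x axis, kb, log scale) for each member, with 1 point per library joined by a line, and grey bars at the median of all protein-coding genes of each length class. Syn2, Syn3, Nrxn2, Celf4, Rbfox3 and Shank2 lie above the bar of the longest class, and 12 of its 18 members lie below.

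The 6 members with the most gene body peaks were Syn3 (63 and 52), Nrxn3 (45 and 38), Rbfox3 (38 and 37), Shank2 (31 and 31), Celf4 (30 and 26) and Syt1 (23 and 15). Per 100 kb Syn3 had 13.0, Celf4 10.1, Rbfox3 8.89 and Shank2 7.34, above the 6.12 of their class. Syt1 had 3.70 and Nrxn3, at 1612060 bp the longest member, had 2.57. Syn3 was thus the highest of the 6 both in number and per length.

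Each synapsin gene carries a gene for a tissue inhibitor of metalloproteinases, a secreted brake on matrix breakdown, in an intron on the opposite strand. Timp3 lies in Syn3 at chr10:86300372-86349506, and its promoter held peaks of 91 and 83, and of 88 and 94. Within 10 kb of Timp3 the Syn3 body held 17 and 18 peaks (24.6 and 26.0 per 100 kb) with a median of 58 and 53.5. The rest of Syn3 held 46 and 34 peaks (12.3 and 9.08 per 100 kb) with a median of 35.5 and 32. The highest gene body peak of Syn3, 114 and 97, lay within Timp3. The host's own promoter peak, with 100 and 87, was nearly as high.

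Timp1 lies in Syn1 at chrX:20870166-20874735, and its promoter peak had 67 and 69. Apart from peaks within 10 kb of Timp1, the Syn1 body held 1 peak in each library, of 9 and 8. Timp4 lies in Syn2 at chr6:115241892-115252205 and had no promoter peak in either library. Within 10 kb of Timp4 the Syn2 body held 5 and 6 peaks with a median of 32 and 29.5, and the rest held 13 and 9 with a median of 32 and 34. Which of the nested genes a peak serves was not tested.

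**Figure D5:**
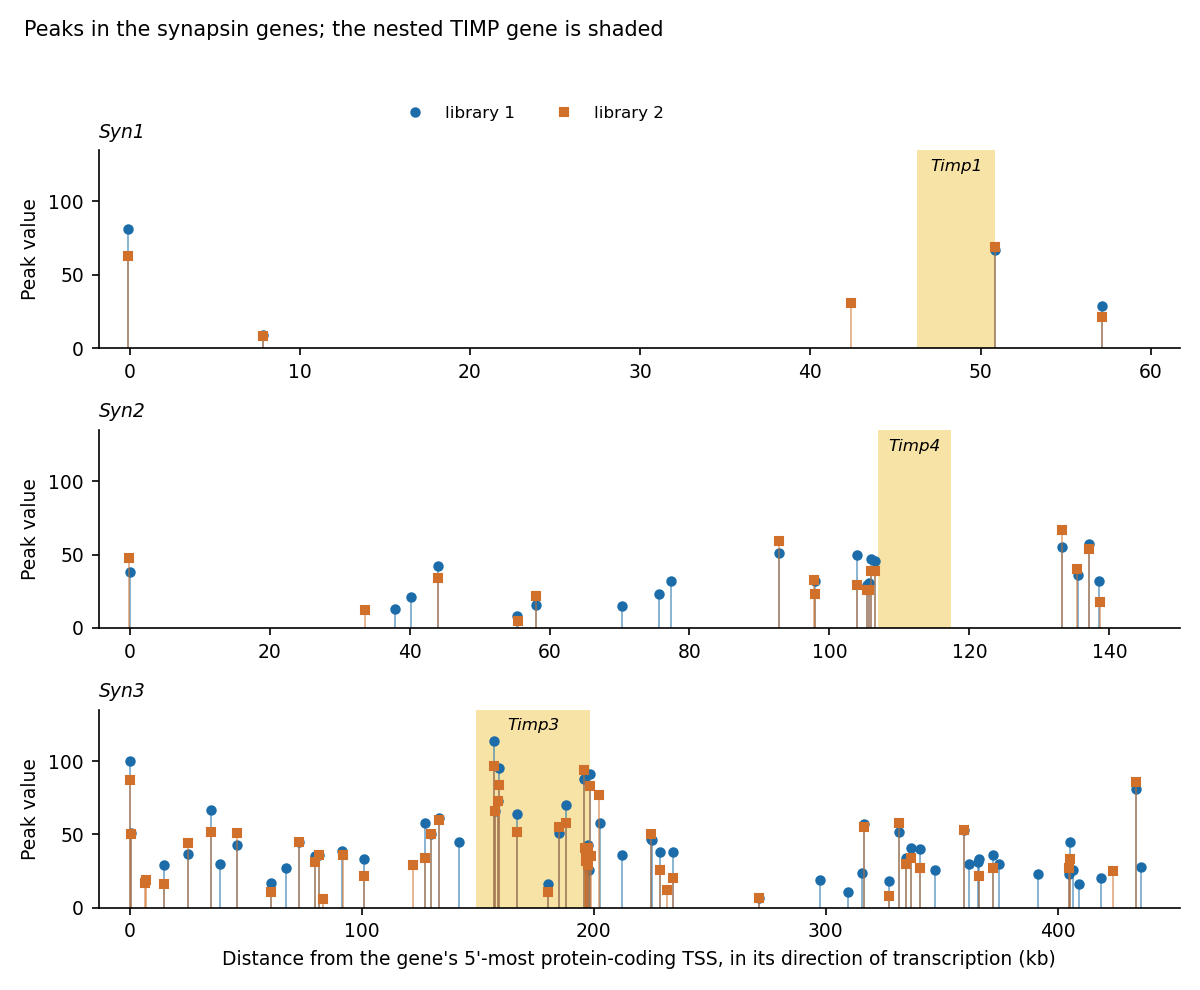
Signal value (y axis) of each peak in Syn1, Syn2 and Syn3 against its distance from the gene's 5′-most protein-coding start (x axis, kb, in the direction of the gene), with the nested TIMP gene shaded. In Syn3 the highest gene body peaks, up to 114 and 97, lie within Timp3, and Timp4 in Syn2 holds no peak.

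Besides Syn3, the 5 members with the highest gene body peaks found in both libraries were Syp, Dlg4, Celf4, Nrxn2 and Shank2, all in introns. The Syp peak at chrX:7648976-7649125 had 115 and 93, in the gene whose promoter peak had 40 and 38. Dlg4 had 92 and 85 at 4608 bp and 87 and 77 at 3968 bp from its 5′ end. Celf4 had 84 and 80, Nrxn2 had 83 and 69, and Shank2 had 80 and 63. In all 5 genes these intronic peaks were higher than every promoter peak of the gene, in both libraries. The 5 were picked for high gene body peaks, which favours that outcome. The same comparison was not counted over all protein-coding genes, so it is not a result about the members.

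The flanks of 50 kb held 254 and 236 peaks, 96 and 91 of them at a TSS of another gene. The median number per member was 5.5, beside 9 for all protein-coding genes. It ranged from none at Gria3 and Gabra2 to 20.5, as the mean of both libraries, at Slc17a7. The highest flank peaks were at neighbours, such as 133 and 125 at the starts of Elp5 and Ctdnep1 near Dlg4, 122 and 119 at Msantd4 near Gria4, 120 and 98 at Tprn near Grin1, and 115 and 116 at Abhd11 near Stx1a. The Slc17a7 gene itself held no gene body peak in either library and had 28 at its promoter in library 1 only.

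Agreement between the libraries was like that of all peaks. Of the members' promoter peaks 43 of 64 in library 1 (67.2%) and 43 of 48 in library 2 (89.6%) overlapped a peak of the other library, beside 70.1% and 79.8% of all peaks. For gene body peaks the shares were 71.5% and 81.8%, and for flank peaks 72.4% and 78.4%. The 4 members with a promoter peak in 1 library only, Gria3, Slc17a7, Nlgn1 and Tubb3, all had it in library 1, which has more peaks in all.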

How the data were processed

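Each replicate's regions were called on its own filtered mm10 alignments, not on pooled reads, per the text deposited with each library. The aligner, the caller, versions and cutoffs: not given in the sources used here. Whether a faint site is listed depends on that cutoff. In the deposited peak lists each peak carries a signal, a whole number with no stated normalization. In the deposited hotspot lists each hotspot carries the −log10 of a q-value, which stops at 100. Peaks and hotspots on chromosomes 1 to 19, X and Y were kept.

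Genes and TSSs came from GENCODE vM21, and sequence from GRCm38.p6, which has the primary sequence of mm10. A promoter peak has its centre within 500 bp of any TSS of the gene, a gene body peak lies elsewhere in the gene, and the flank is 50 kb to either side. A hotspot counts where it overlaps the promoter window. Consensus elements were searched on both strands of each 150 bp peak, RE1 in 17 bases. Scripts used Python 3.11.15, numpy 2.4.6 and pysam 0.24.0, and were tested on simulated peaks and planted matches.

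The members and the gene lists were chosen with earlier results of these data known. All 35 members are accounted for, with values in both libraries for members with a promoter peak, for the 6 with the most gene body peaks, the 6 with the highest other shared peaks and each with an open RE1 match. No test was made, since both libraries form 1 group, and other windows, TSS sets and thresholds were tried. Precision is limited to the spread of 2 libraries of 1 donor label.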

Additional observations from a re-analysis of the deposited data

How the results depend on the processing

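Of 48 alternatives over 8 results, 33 left the count within 1.5 times, or the value within the spread of the libraries. With only peaks at or above the library's median value, members with a promoter peak in both libraries fell from 26 to 17, shared gene body peaks from 283 to 104, shared flank peaks from 184 to 115 and the median of gene body peaks per member from 5.5 to 1.5. With only hotspots at the top value, members with a promoter hotspot in both libraries fell from 26 to 15. A flank of 25 kb held 85 shared peaks and one of 100 kb held 412. The share of all protein-coding genes with a promoter peak was 61.1% with a window of 250 bp and 66.0% with 1000 bp, beside 63.7%. It was 62.5% with TSSs of protein-coding transcripts, 58.1% with the 5′-most of those and 58.0% with peaks at or above the median. For these alternatives the lower and higher numbers follow from fewer or more peaks, starts or bases being counted. Leaving out a replicate gave 26 to 30 members with a promoter peak, 26 to 30 with a promoter hotspot, 65.2% to 66.0% of all genes, 61 to 62 of the other synapse genes, 346 to 396 gene body peaks, 236 to 254 flank peaks, a median of 4 to 6 per member and 11 members with an open RE1 match. That RE1 count was 8 with peaks at or above the median, 10 with a flank of 25 kb and 11 with 100 kb, beside 11. It was 16 with 1 mismatch allowed. The share of all genes under these RE1 settings was not counted. No paired analysis was possible because the libraries form a single group. The unknown depth limits every absent peak, which says only that none was called.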
